A study of Mus musculus with 36 samples.

Results

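The genes described here are 10 genes of purine salvage and purine synthesis, out of 22761 genes in the table. They were chosen by name: *Hprt*, *Aprt* and *Adk* of the salvage route, *Ppat*, *Gart*, *Pfas*, *Paics*, *Adsl* and *Atic* of the de novo route, and *Impdh2*, which leads on to guanine nucleotides. The near absence of *Hprt* RNA from iNP and iSP cells was known when the genes were picked, so its level there is given as a description with no test. The question was whether the synthesis genes differ from their level in ex-fetu counterparts in the cells where *Hprt* is low.

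RNA was sequenced from sorted mouse kidney progenitors in 36 libraries, 4 in each of 9 groups. Ex-fetu ureteric bud (UB), stromal progenitor (SP) and nephron progenitor (NP) cells came from E11.5 and E12.5 kidneys of CD1 mice, with the kidneys of a whole litter pooled in each sample. The gate for UB cells was RET and EpCAM positive; those for the others selected NP cells by strong ITGA8 with weak PDGFRA staining, and SP cells the other way round, after cells positive for CD31 (an endothelial protein), EpCAM or RET had been gated out. The same ITGA8 and PDGFRA gates gave the induced cells, iNP and iSP, from cultures of E14 mESC, in which a batch of embryoid bodies gave both types. Engineered ureteric bud cells (eUB, titled iUB in the labels) were EpCAM and mCherry positive cells of a line labelled Sox9-mCherry-mESC. The methods name the same line for sequencing, but the only mCherry line whose making they describe is a Sox8 reporter in IB10 mESC, so which reporter line these cells are, and their parent line, is not settled. The sub-line of the E14 cells is not given in the sources used here. The samples titled E11.5 UB give E12.5 as their cell source and those titled E12.5 UB give E11.5. The titles, with which the cell type label goes, were used, so every comparison with UB cells of 1 age rests on them. The ES-derived groups differ from the ex-fetu groups in line, strain and culture at once, and the part of each in a difference cannot be told apart.

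Cells make purine nucleotides in a pair of ways. In de novo synthesis the ring is built step by step on phosphoribosyl pyrophosphate (PRPP), using amino acids and folate-borne carbon, until inosine monophosphate (IMP) is reached. In salvage, free bases and nucleosides are turned back into nucleotides, and HPRT, encoded on the X chromosome, does this for hypoxanthine and guanine with PRPP as the sugar donor. HPRT is a classical selection marker in mouse embryonic stem cells, and E14TG2a, a widely used derivative of E14, was selected for its loss.

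Values are read counts scaled to library size with the authors' normalisation factors (normalised CPM), and log2 fold changes are on the log2(normalised CPM + 1) scale. The libraries held 13.0 to 52.5 M reads on genes, and 3 reads, taken as the limit of detection, were worth 0.0605 to 0.223 normalised CPM. Replicates correlated at r = 0.977 or more. E12.5 UB replicate 1 stood apart, with a summed level of the 6 NP markers of 368 normalised CPM against 29.9 to 41.2 in the other E12.5 UB libraries, and where leaving it out changes a call, a direction or an order, the value without it is given. E12.5 NP replicate 1 and E12.5 SP replicate 1 stood apart too, with sums of their own type's markers of 1179 against 1829 to 2097 and of 1706 against 2812 to 3013. The 17 serine and folate genes summed to 972 and 749 in this pair of libraries, against 1860.4 to 2140.2 and 1311 to 1523 in the others. Of the markers that define the sorted types, *Six2* was at 139 ± 15.9 (SD, n = 4) in iNP cells against 590.2 ± 35.7 at E11.5, *Itga8* at 182 ± 71.5 and 102 ± 13.4, and *Cited1* at 2.95 ± 1.10 and 31.3 ± 9.96. *Foxd1*, the defining gene of renal stroma, was at 15.2 ± 3.67 in iSP cells against 410.4 ± 126 at E11.5, while *Pdgfra* was at 409.7 ± 32.0 and 344 ± 7.28. *Ret* and *Epcam* were present in eUB cells, at 473 ± 35.7 and 649 ± 43.2. Since these are bulk samples, fewer cells of a type and less RNA per cell cannot be told apart.

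*Hprt* (ENSMUSG00000025630, GRCm38 chromosome X, 52988137 to 53021659, plus strand) has 9 exons in its longest coding transcript of 1289 bases. The iNP libraries held 0.106, 0.525, 0.234 and 0.228 normalised CPM, from 3, 16, 8 and 10 reads. In the iSP libraries the values were 0.290, 0.537, 0.702 and 0.574, from 6, 15, 19 and 17 reads. All 8 of these libraries lay far below every other one, since the lowest value elsewhere was 23.1, in E11.5 SP replicate 2. E11.5 NP libraries were at 37.1, 46.4, 51.0 and 54.0, and E11.5 SP libraries at 35.4, 23.1, 30.9 and 43.9. The mean of E11.5 NP cells was 172 times that of iNP cells, and the mean of E11.5 SP cells was 63.4 times that of iSP cells. Against E12.5 cells the ratios were 163 and 74.3. *Hprt* RNA was thus at 0.580% of the E11.5 level in iNP cells and at 1.58% in iSP cells. iNP replicate 1 was at the limit of detection and the other 7 libraries were above it.

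The eUB libraries, in contrast to the other ES-derived cells, held *Hprt* at 49.3, 41.5, 43.7 and 48.8 normalised CPM. E11.5 UB libraries were at 50.7, 45.2, 51.9 and 51.6, and the ranges overlapped. The log2 fold change of -0.12 (95% interval -0.31 to 0.07) did not pass the test (limma adjusted p = 0.24). Against E12.5 UB cells it was -0.01 (-0.39 to 0.37, adjusted p = 0.97), or -0.19 (adjusted p = 0.11) without E12.5 UB replicate 1, in which *Hprt* was at 31.5 against 50.0 to 53.8 in the others. From E11.5 to E12.5 no change of *Hprt* was called in UB, SP or NP cells, with log2 fold changes of -0.11, 0.25 and -0.10. In UB cells the value was 0.06 without E12.5 UB replicate 1. In order of their means the groups ran iNP (0.273 ± 0.178), iSP (0.526 ± 0.172), E11.5 SP (33.3 ± 8.66), E12.5 SP (39.1 ± 6.38), E12.5 NP (44.4 ± 11.3), eUB (45.8 ± 3.86), E12.5 UB (47.0 ± 10.4), E11.5 NP (47.1 ± 7.39) and E11.5 UB (49.8 ± 3.15; SD, n = 4). The ranges of neighbours in this order overlapped everywhere except between iSP and E11.5 SP. Without replicate 1 the E12.5 UB mean was 52.1 ± 1.96 (n = 3), the highest of the 9.

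**Figure D1:**
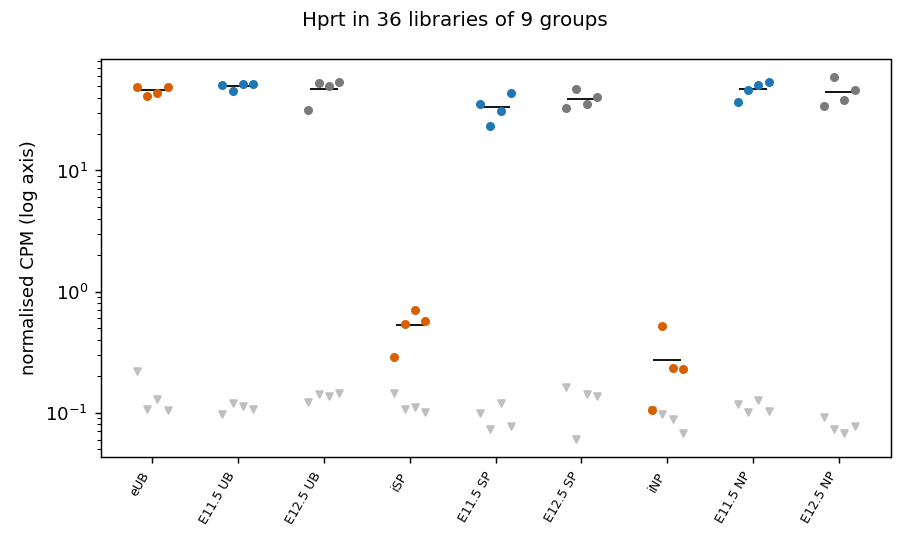
*Hprt* in normalised CPM on a log axis for each library of the 9 groups (points, with a line at the group mean); grey triangles mark the level worth 3 reads in the same library. The 4 iNP and 4 iSP libraries lie between 0.106 and 0.702, and the other 28 libraries lie at 23.1 or above.

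The sequence upstream of *Hprt* is shown because this gene carries the widest difference of the set. It covers 250 bases before the RefSeq start on the plus strand of GRCm38.p6, chrX:52987828-52988077, and capitals mark the GC box GGGCGG, which was searched on both strands and can bind SP1-type factors.
Hprt: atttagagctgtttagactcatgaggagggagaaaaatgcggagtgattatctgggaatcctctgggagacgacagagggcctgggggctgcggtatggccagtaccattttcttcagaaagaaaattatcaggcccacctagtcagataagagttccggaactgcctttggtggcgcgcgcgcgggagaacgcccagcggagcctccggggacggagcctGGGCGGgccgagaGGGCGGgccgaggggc
The marked boxes begin 29 and 16 bases before the start, and another match begins 4 bases before it and runs past this window. GGGCGG stood in the RefSeq window (250 bases before to 50 after a start) of 9 of the 9 members that have one, *Pfas* having none in the table, and in 35.7% of all 32851 windows. A match of letters is a description only, and nothing in these data bears on binding there.

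The genes next to *Hprt* on chromosome X were examined in the same groups. *Phf6*, a chromatin-associated PHD finger gene 31.2 kb before *Hprt*, was at 68.9 normalised CPM in iNP and 100.3 in iSP cells, against 104 in E11.5 NP and 76.0 in E11.5 SP cells. Its log2 fold change was -0.60 in iNP (limma adjusted p = 0.0078) and 0.40 in iSP cells (adjusted p = 0.003), so it moved in opposite directions in the iNP and iSP cells. *Rps2-ps13*, a processed pseudogene 88.7 kb before *Hprt*, was at 0.806 in iNP, 0.352 in iSP and 0.221 in eUB cells and above 100 in each of the 6 ex-fetu groups. Its low level thus included the eUB cells, in which *Hprt* was present, and as a ribosomal protein pseudogene its count may depend on how reads were shared with near-identical copies. *Ccdc160*, *Gm28730*, *Mir351* and *Mir503*, the other neighbours in the table, reached at most 4.88, 0.542, 0.724 and 0.335 in any library.

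The genes whose 9 group means followed those of *Hprt* most closely, on the log2 scale and among 16130 genes, were *Brpf1* (Pearson r = 0.984), *H19* (0.980), *Peg13* (0.977), *Ubald1* (0.977) and *Trp53* (0.977). *H19* and *Peg13* are imprinted non-coding RNAs, *Brpf1* encodes a scaffold of histone acetyltransferase complexes and *Trp53* encodes p53. *Peg13* was at 0.116 in iNP and 0.107 in iSP cells and at 25.8 to 51.9 in the other groups. *Trp53* was at 35.3 and 38.4 against 190 to 335 elsewhere. The coefficients are over 9 means of which only iNP and iSP are low, and these come from the same line and cultures, so the likeness rests largely on that pair of groups.

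**Figure D2:**
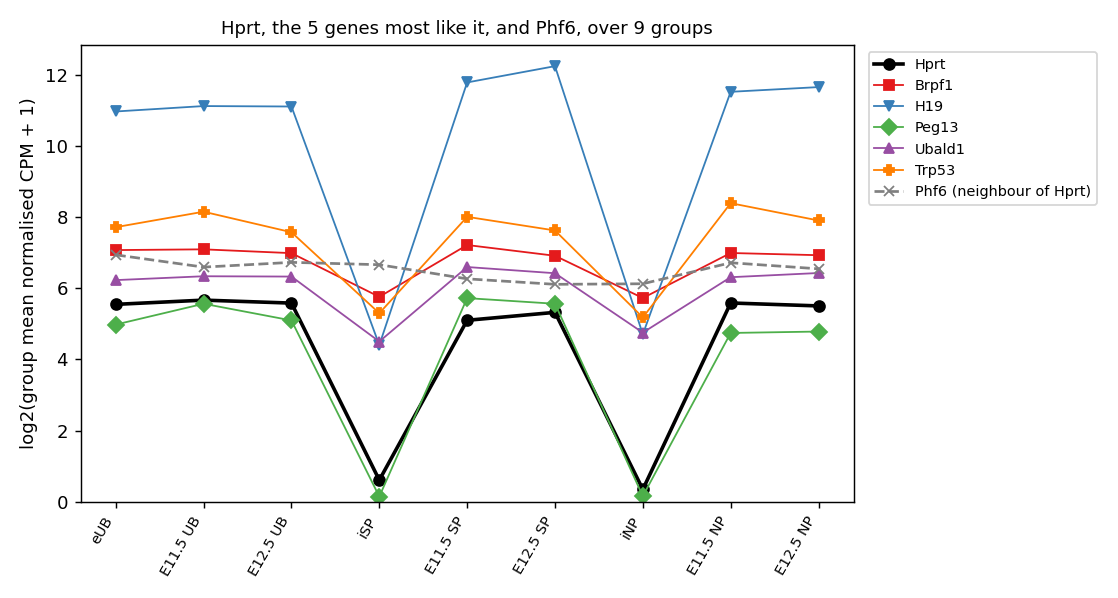
Group means of *Hprt*, of the 5 genes most like it and of its neighbour *Phf6*, as log2(mean normalised CPM + 1), over the 9 groups. *Hprt* and the 5 genes dip in iSP and iNP (r of 0.977 to 0.984 with *Hprt*), and *Phf6* stays between 68.2 and 122 normalised CPM throughout.

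Neither of the other salvage genes was called lower in iNP or iSP cells. *Aprt* (chromosome 8, 122574635 to 122576909), which turns adenine into AMP, was at 92.8, 151, 87.5 and 85.6 normalised CPM in iNP and at 64.1, 73.3, 64.3 and 61.1 in E11.5 NP libraries. Every iNP library was above every E11.5 NP library, and replicate 2 was the highest. The log2 fold change was 0.62 (SE 0.17, limma adjusted p = 0.01), and 0.43 (adjusted p = 0.00044) without iNP replicate 2. In iSP libraries *Aprt* was at 128, 98.3, 105 and 99.4, against 54.7, 53.7, 69.2 and 93.7 in E11.5 SP libraries, a log2 fold change of 0.69 (SE 0.17, adjusted p = 0.006) with no overlap. Against E12.5 cells neither change was called, at 0.27 (95% interval -0.18 to 0.73) in iNP and 0.08 (-0.15 to 0.30) in iSP cells. In eUB cells *Aprt* ranged from 72.4 to 144 around the E11.5 UB range of 88.0 to 98.7 (0.05, adjusted p = 0.81). *Adk* (chromosome 14, 21052574 to 21448569), which phosphorylates adenosine to AMP, rose in iSP cells from 22.3 to 42.3 in E11.5 SP to 47.2 to 63.6 (0.85, SE 0.18, adjusted p = 0.0023), and also against E12.5 SP cells (0.47, adjusted p = 0.017). In iNP cells it was at 47.7 to 58.6 against 36.6 to 55.1 (0.07, adjusted p = 0.69), and in eUB cells its change of 0.25 was not called (adjusted p = 0.083).

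In iSP cells most of the purine synthesis genes were higher than in ex-fetu SP cells. Against E11.5 SP cells, 5 of the 6 de novo genes and 8 of the 9 members other than *Hprt* were called higher, and none was called lower. Of all 13916 genes tested 67.6% were called, 35.5% higher and 32.1% lower. The median log2 fold change of the 9 members was 0.61 and that of all genes 0.04. Without regard to sign, the median change of all genes was 0.54. *Paics* (chromosome 5, 76951307 to 76967509), which encodes a bifunctional enzyme of the middle of the route, was at 481, 388, 402 and 447 normalised CPM in the iSP libraries, against 226, 191, 263 and 286 at E11.5. The groups did not overlap, and the log2 fold change was 0.84 (SE 0.13, limma adjusted p = 0.00034). *Pfas* (chromosome 11, 68985697 to 69008460), a glutamine-using step, was at 105, 118, 115.3 and 109 against 57.7, 64.5, 67.7 and 63.9. It had the smallest p-value of the set (log2 fold change 0.81, SE 0.08, adjusted p = 1.5e-05). *Gart* (chromosome 16, 91621186 to 91646952), whose protein carries several activities of the early route, was at 154, 126, 128 and 133 against 84.8, 81.9, 109.6 and 118 (0.47, SE 0.13, adjusted p = 0.01). Again each iSP library was above each E11.5 SP library.

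*Adsl* (chromosome 15, 80948490 to 80970946), a lyase that acts in IMP synthesis and again in the making of AMP, ranged from 78.7 to 87.6 in iSP libraries and from 54.6 to 79.5 at E11.5, so that the ranges overlapped (0.36, SE 0.12, limma adjusted p = 0.02). *Atic* (chromosome 1, 71557150 to 71579631), the folate-using enzyme that closes the ring to IMP, ranged from 128 to 155 against 67.6 to 134 (0.61, SE 0.20, adjusted p = 0.021). *Impdh2* (chromosome 9, 108560286 to 108565584), which takes IMP towards GMP, ranged from 195 to 238 against 126 to 209 (0.44, SE 0.15, adjusted p = 0.03). *Ppat* (chromosome 5, 76913249 to 76951578), the amidotransferase that commits PRPP to the route, was the exception, at 55.9 to 64.5 against 52.2 to 75.1, with a log2 fold change of -0.05 (95% interval -0.30 to 0.20, adjusted p = 0.72). Under quantile normalisation and upper-quartile scaling the sign of *Ppat* turned (0.06 and 0.09, not called), and the 8 calls were kept. Of the calls over all genes, 54.7% and 60.9% were then higher, against 52.5% in the main fit. With edgeR on the recovered reads 7 of the 9 were called, *Impdh2* being lost (0.39, adjusted p = 0.0502). Leaving out iSP replicate 1 or E11.5 SP replicate 1 left 5 of the 9 members called, 3 of them de novo genes, and *Adsl*, *Atic* and *Impdh2* lost the call. Without iSP replicate 4 *Atic* and *Impdh2* lost it, and without E11.5 SP replicate 2 *Impdh2* did.

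Against E12.5 SP cells, the same iSP libraries had 4 of 6 de novo genes and 6 of 9 members called higher, where 62.1% of all genes were called, 33.3% higher and 28.8% lower. *Paics* was again far from the ex-fetu range, which was 199 to 271 (log2 fold change 0.94, SE 0.12, limma adjusted p = 0.00011). *Impdh2* (0.42, adjusted p = 0.0056), *Adk*, *Adsl* (0.24, adjusted p = 0.021), *Pfas* (0.48, adjusted p = 0.029) and *Gart* (0.26, adjusted p = 0.041) were the others. *Atic* at 0.33 (adjusted p = 0.052), *Aprt* and *Ppat* were not called, and *Atic* was called without E12.5 SP replicate 2 (0.45, adjusted p = 0.0052), under quantile normalisation (0.48, adjusted p = 0.007) and under upper-quartile scaling (0.45, adjusted p = 0.0097). Under each of these scalings 7 of the 9 members and 5 of the 6 de novo genes were called. Of the calls over all genes, 55.2% were higher under quantile normalisation and 61.8% under upper-quartile scaling, against 53.6% in the main fit. Without iSP replicate 1, 3 or 4 the count fell to 3 of 9 members, and between 1 and 2 of the de novo genes were then called. *Adk* lost the call without iSP replicate 1 or 4. *Gart* also lost the call without iSP replicate 2 or E12.5 SP replicate 3 or 4, and *Pfas* without iSP replicate 2 or E12.5 SP replicate 4. *Gart* was not called either with edgeR (0.23, adjusted p = 0.075) and with all 36 libraries in 1 fit (adjusted p = 0.095). Without E12.5 SP replicate 1 the count stayed at 6, with *Pfas* at 0.30 (adjusted p = 0.0062).

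Other RNA moved with the SP comparison. The 5 erythroid markers summed to 81.1, 314, 255 and 1522 normalised CPM in E11.5 SP libraries and to 269 to 2755 in E12.5 SP libraries, and to at most 0.0483 in iSP libraries. The E11.5 SP library with the most erythroid RNA, replicate 4, was also the one in which the 6 de novo genes summed highest, at 756 against 516 to 677 in the other E11.5 SP libraries and 895 to 1045 in iSP libraries. Without it, 8 of the 9 members were called, as with it. The endothelial markers summed to 32.9 to 52.1 in iSP and 10.6 to 36.1 in E11.5 SP libraries, with 4 of 5 called higher, although both were sorted after the gate against CD31 (*Pecam1* RNA, not called in iSP cells), EpCAM and RET. The UB markers summed to 74.8 to 83.0 and 124 to 290.2. The NP markers summed to 292 to 326 in iSP and 217 to 267 in E11.5 SP libraries, with no overlap, and 2 of 6 were called higher and 2 lower. *Itga8*, a gene of the gate, was at 58.1 ± 1.97 and 17.7 ± 6.99 (SD, n = 4). Against E12.5 SP cells 4 of the 6 were called higher and none lower, with a median of 1.82. The pluripotency markers summed to 4.33 to 7.10 and 0.338 to 0.901. Macrophage markers were at 1.43 or less in both groups. The part of these cells in the difference was not tested.

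**Figure D3:**
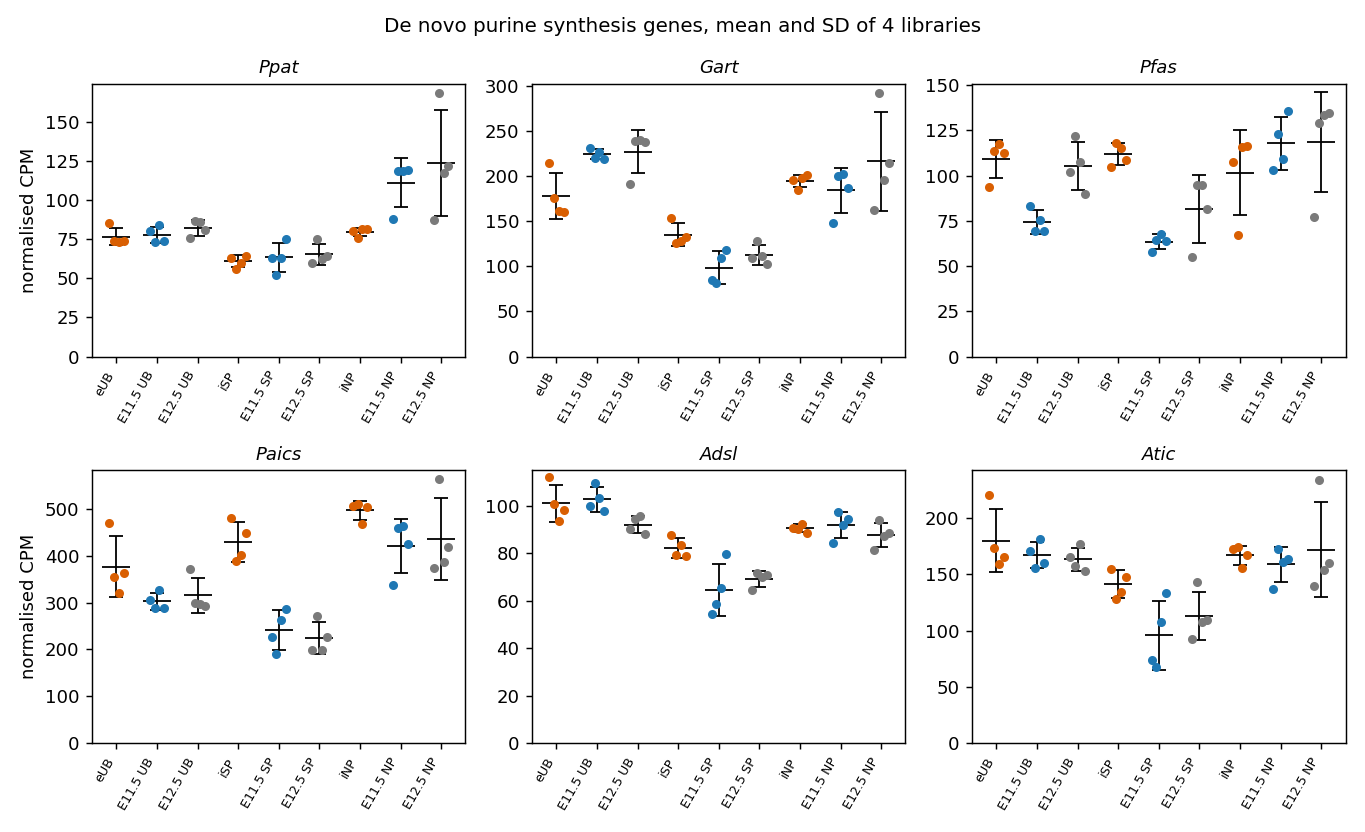
The 6 de novo synthesis genes in normalised CPM for each library (points; ES-derived orange, E11.5 blue, E12.5 grey), with the mean and SD of each group of 4. *Paics*, *Pfas* and *Gart* in iSP lie above every E11.5 SP library, and *Ppat* in iNP (75.9 to 81.6) lies below every E11.5 NP library (87.7 to 119).

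In iNP cells, whose *Hprt* values overlapped those of iSP cells, none of the de novo genes was called higher with the authors' scaling. Against E11.5 NP cells 1 of the 6 was called lower, where 64.7% of all 14064 genes tested were called, 35.5% higher and 29.2% lower. *Ppat* was at 80.3, 75.9, 81.5 and 81.6 normalised CPM in iNP and at 87.7, 119, 119 and 119 in E11.5 NP libraries. All iNP libraries were below all E11.5 NP libraries, with a log2 fold change of -0.46 (SE 0.11, limma adjusted p = 0.0051). The same iNP libraries gave -0.59 (adjusted p = 0.024) against E12.5 NP libraries at 87.2 to 169, where it was the only one of the 9 members called and 44.3% of all genes were (25.6% higher and 18.7% lower). That call was lost without iNP replicate 1, 3 or 4 or without E12.5 NP replicate 3 or 4, at -0.60 to -0.58, and under both other scalings (-0.42 and -0.44). Without E12.5 NP replicate 1, the library that stood apart, *Ppat* was at -0.74 (adjusted p = 0.0037), and without E12.5 NP replicate 2 *Paics* was called higher (0.34, adjusted p = 0.022). *Paics* was at 506, 511, 467 and 503 against 337, 458, 463 and 426, the highest group mean of the gene in the data, but its change of 0.25 (95% interval -0.00 to 0.50) was not called (adjusted p = 0.078).

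The remaining changes in iNP cells were small. *Gart* differed by 0.09 (95% interval -0.16 to 0.33), *Atic* by 0.08 (-0.13 to 0.29), *Adsl* by -0.02 (-0.20 to 0.16) and *Impdh2* by -0.10 (-0.33 to 0.14). *Impdh2* was called lower without iNP replicate 2 (-0.17, limma adjusted p = 0.039). *Pfas* was at 108, 116 and 116 in iNP replicates 1, 3 and 4 and at 67.1 in replicate 2, against 103 to 136 in E11.5 NP libraries, and its change of -0.24 (-0.63 to 0.16) became -0.05 without replicate 2. That library was also the highest iNP library for *Aprt* and *Adk* and had the lowest sum of NP markers, 521 against 708 to 804. The median change of the 9 members was 0.07, as was that of all genes.

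These iNP values depended on the scaling of the libraries. The median shift over all genes was 0.18 under upper-quartile scaling and -0.10 under quantile normalisation. The share of calls that were higher went from 54.9% to 66.1% under upper-quartile scaling and to 50.1% under quantile normalisation. Under upper-quartile scaling *Gart* (0.27, limma adjusted p = 0.049), *Paics* (0.44, adjusted p = 0.01) and, at the edge of the threshold, *Atic* (0.26, adjusted p = 0.0498) were called higher. Under quantile normalisation they were called as well (0.35, 0.37 and 0.34). The call of *Ppat* was lost under both, at -0.28 (adjusted p = 0.054) and -0.25 (adjusted p = 0.077). *Adsl* and *Impdh2* turned positive under both and *Pfas* under quantile normalisation, with none of these called. *Aprt* was called higher under every scaling. Other RNA differed too. The NP markers, those of the cells' own type, summed to 521 to 804 in iNP and 1345 to 1502 in E11.5 NP libraries, with 5 of 6 called lower. The UB markers summed to 92.4 to 95.2 in iNP and 27.5 to 50.5 in E11.5 NP libraries, with 5 of 7 called higher, and the SP markers to 439 to 629 and 409 to 453, with 4 of 5 called higher and 1 lower. *Pdgfra*, a gene of the gate, was among the higher ones (3.15, limma adjusted p = 4.1e-06). The pluripotency markers summed to 28.8 to 42.0 in iNP and at most 1.29 in E11.5 NP libraries, most of it *Sox2*, which is not particular to pluripotent cells. The endothelial markers summed to 43.9 to 74.8 and 8.92 to 27.0, with 5 of 5 called higher, although the same gate against CD31 was applied to both, and the erythroid markers to at most 0.141 and 13.7 to 72.8. Their part in the differences was not tested.

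The eUB cells, in which *Hprt* was present, are another ES-derived type, but they differ from iNP and iSP in line, protocol, gate and cell type, so they are no control for the loss of *Hprt*. Against E11.5 UB cells 3 of the 9 members were called, where 60.5% of all genes were, 32.1% higher and 28.5% lower. *Pfas* was at 93.9, 114, 117 and 113 normalised CPM in eUB and at 83.5, 69.4, 75.7 and 69.5 in E11.5 UB libraries, with no overlap (log2 fold change 0.55, SE 0.09, limma adjusted p = 0.00064). *Gart* was lower, at 215, 176, 161 and 161 against 231, 219.8, 226 and 219 (-0.34, SE 0.10, adjusted p = 0.011). Its call was lost under quantile normalisation (-0.22) and upper-quartile scaling (-0.29). *Paics* ranged from 319 to 469.5 against 287 to 327, overlapping, and its change of 0.30 (adjusted p = 0.043) lost the call without eUB replicate 2 or 4 or without E11.5 UB replicate 1, 2 or 4, at 0.28 to 0.33, as well as with no filter (adjusted p = 0.06), with edgeR (0.29, adjusted p = 0.073) and with all 36 libraries in 1 fit (adjusted p = 0.063). *Adsl*, *Atic*, *Ppat* and *Impdh2* lay between -0.15 and 0.09 and were not called, although *Impdh2* was called lower without eUB replicate 1 (-0.22, adjusted p = 0.005). Against E12.5 UB cells 1 of the 9 members was called, with 44.4% of all genes (23.3% higher and 21.2% lower): *Gart* at -0.35 (adjusted p = 0.037), and -0.43 (adjusted p = 0.01) without E12.5 UB replicate 1. That call was lost without replicate 2, 3 or 4 of either group, at -0.35 to -0.31, with edgeR (-0.34, adjusted p = 0.051), under quantile normalisation (-0.29, adjusted p = 0.059) and under upper-quartile scaling (-0.32, adjusted p = 0.076). The UB markers summed to 2738 to 2968 in eUB and 3152 to 3331 in E11.5 UB libraries, with no overlap. Of these 7 genes 1 was called higher, *Ret* (0.38), and 2 lower, among them *Krt8* (-0.64). Macrophage markers summed to 0.371 to 0.497 in eUB and 41.02 to 68.9 in E11.5 UB libraries, and the erythroid markers to at most 0.0859 and 5.95 to 53.9. The SP markers summed to 196 to 220.01 and 125 to 146, with 2 of 4 tested called higher and none lower, among them *Foxd1* at 20.1 ± 6.51 and 2.51 ± 0.309 (SD, n = 4). The endothelial markers summed to 9.21 to 13.6 and 4.76 to 12.9, overlapping, and of 4 tested 1 was called higher and 2 lower. The higher one was *Tek* (9.79 ± 1.43 and 0.283 ± 0.218), while *Cdh5* and *Tie1* had no reads in eUB libraries and stood at 2.20 ± 1.06 and 1.63 ± 0.390 in E11.5 UB libraries. The NP markers summed to 36.5 to 46.6 and 41.3 to 44.3, with 2 of 5 tested called higher and 2 lower, and the pluripotency markers to 2.97 to 4.51 and 1.89 to 3.18. The part of these cells was not tested.

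The change in iSP or iNP cells was then set against the change in eUB cells in a single fit. For iSP cells 5 of the 9 members differed, each with the iSP change above the eUB change, where 47.4% of all 15163 genes were called, 23.3% higher and 24.2% lower. In eUB cells *Gart* was itself called lower (-0.34). *Impdh2* (-0.15) and *Adsl* (-0.02) lay below 0 there and were not called, while *Paics* (0.30) and *Adk* (0.25) lay above 0. The difference was 0.81 for *Gart* (SE 0.17, limma adjusted p = 0.00085), 0.58 for *Impdh2* (SE 0.19, adjusted p = 0.016), 0.54 for *Paics* (SE 0.18, adjusted p = 0.023), 0.38 for *Adsl* (SE 0.14, adjusted p = 0.033) and 0.59 for *Adk* (SE 0.23, adjusted p = 0.04). For *Pfas*, higher in both ES-derived types, it was 0.26 (95% interval 0.01 to 0.52) and did not pass over all genes (adjusted p = 0.086). *Aprt* (0.63, adjusted p = 0.06) and *Atic* (0.51, adjusted p = 0.09) did not pass, nor did *Ppat* (-0.03, adjusted p = 0.88). *Pfas* was called under quantile normalisation (0.29) and upper-quartile scaling (0.35). *Aprt* and *Atic* were called without eUB replicate 1 (0.83 and 0.61) or without E11.5 SP replicate 4 (0.80 and 0.69), and *Aprt* with all 36 libraries in 1 fit (adjusted p = 0.039), where 6 of the 9 were called. The median of the 9 members was 0.54 and that of all genes 0.02, or 0.45 for all genes without regard to sign. The count fell to 2 of 9 without iSP replicate 1 or eUB replicate 3, and to 3 of 9 without eUB replicate 2 or 4, E11.5 UB replicate 2 or 3, or E11.5 SP replicate 1 or 2. *Gart* was called in each of these. With E12.5 comparators *Gart* (0.62), *Impdh2* (0.56) and *Paics* (0.70) were called, and *Adk* (0.25) and *Adsl* (0.11) were not. Leaving out E12.5 UB replicate 1 as well left the same 3 called, at 0.69, 0.50 and 0.62. The 47.4% of all genes called belongs to the fit with E11.5 comparators. The share of all genes called with E12.5 comparators is not given here, so these calls cannot be set beside it.

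For iNP cells the difference from the eUB change went both ways, with 3 of the 9 members called and 47.1% of all 15155 genes, 24.9% higher and 22.3% lower. *Gart* was relatively higher (0.43, SE 0.15, limma adjusted p = 0.024), and *Ppat* (-0.44, SE 0.14, adjusted p = 0.014) and *Pfas* (-0.78, SE 0.21, adjusted p = 0.006) relatively lower. The iNP and iSP differences use the same eUB and E11.5 UB libraries and are not independent of each other. *Ppat* lost the call under both scalings (-0.28 and -0.32), and *Gart* lost it without eUB replicate 3 or 4 (0.38 each) and with all 36 libraries in 1 fit (adjusted p = 0.069). *Aprt* (0.57, adjusted p = 0.088) was called without eUB replicate 1 (0.76). With E12.5 comparators, where the count of all genes called fell from 7143 to 4540, none of the 3 was called. They were at 0.24 for *Gart*, -0.49 for *Ppat* and -0.28 for *Pfas*, and none was called without E12.5 UB replicate 1 either (0.31, -0.45 and -0.26). A difference that includes iNP and one that includes iSP were not compared with each other.

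**Figure D4:**
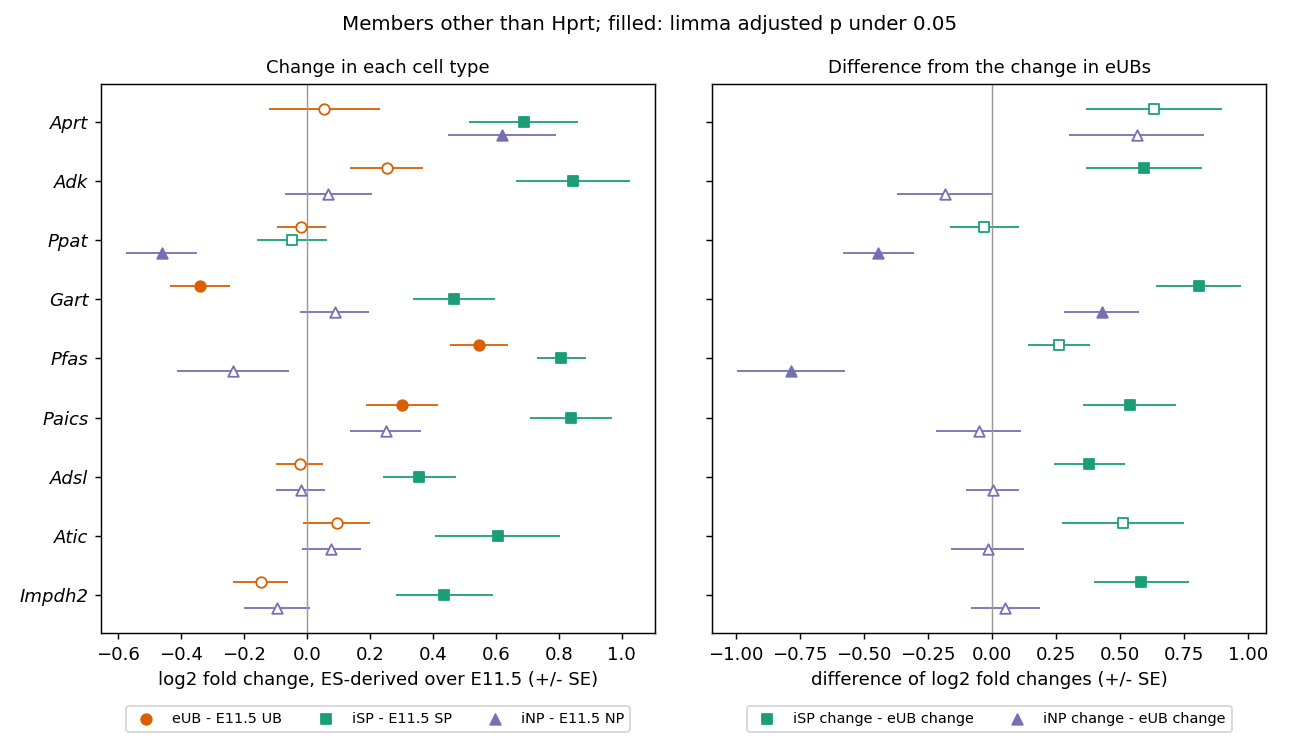
Log2 fold changes of the 9 members other than *Hprt* in each ES-derived type against its E11.5 counterpart (left), and how far the iSP and iNP changes lie from the eUB change (right), with SE over 4 libraries a group. Filled symbols have a limma adjusted p under 0.05. In the left panel, with the authors' scaling, 8 iSP symbols are filled on the higher side, and 1 higher and 1 lower for iNP. Under both other scalings 4 members were called higher and none lower in iNP cells. The iSP and iNP changes were not tested against each other.

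Between E11.5 and E12.5 the ex-fetu cells showed few changes in these genes. In UB cells *Pfas* rose from a mean of 74.5 ± 6.66 to 105 ± 13.3 normalised CPM (log2 fold change 0.49, SE 0.10, limma adjusted p = 0.0073), and it was 0.50 without E12.5 UB replicate 1. This direction rests on the titles. By the cell source labels it would be a fall of the same size, and the eUB values of *Pfas* against the 2 ages (0.55, called, and 0.06, not called) would be exchanged. No other member was called there, against 26.5% of all genes (14.2% higher and 12.3% lower). In SP cells none was called, against 8.52% of all genes (3.73% higher and 4.80% lower), and the widest change was that of *Aprt* (0.61, 95% interval 0.22 to 1.003, adjusted p = 0.061). *Aprt* was called without E11.5 SP replicate 4, the erythroid-rich library (0.78, adjusted p = 0.0077), and with all 36 libraries in 1 fit (adjusted p = 0.011), and *Pfas* (0.33) without E12.5 SP replicate 1 (0.51, adjusted p = 0.012). In NP cells none was called, with or without E12.5 NP replicate 1, against 6.34% (2.74% higher and 3.59% lower), with *Aprt* again the widest (0.35, 0.05 to 0.64, adjusted p = 0.15). *Paics* ranged from 374 to 563 in E12.5 NP and from 337 to 463 in E11.5 NP libraries.

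Levels of different genes were compared per kilobase of the longest coding transcript. *Paics* was the highest member in every group except E12.5 SP, in which *Aprt* was, and it stood in iSP, iNP and E11.5 SP cells at 173 ± 17.2, 200.1 ± 8.07 and 97.3 ± 16.8 normalised CPM per kilobase. *Aprt* was next in iSP cells, at 127 ± 16.3, and *Impdh2* followed at 114 ± 10.9, while in E11.5 SP cells *Impdh2* (85.6 ± 20.4) and *Aprt* (79.9 ± 22.0) were within their spread of each other. *Pfas* was the lowest in E11.5 SP cells, at 9.95 ± 0.657. *Hprt* was in the 6th place of 10 in all 7 groups that express it, at 25.9 to 38.7 per kilobase, and in the 10th in iNP and iSP cells, at 0.212 and 0.408.

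Some counts are uncertain where genes share sequence. *Ppat* and *Paics* lie head to head on opposite strands of chromosome 5 and share 272 exonic bases. *Gart* shares 1014 exonic bases with *Gm15964* on the opposite strand, which reached 2.92 normalised CPM at most. The libraries were stranded, and how strand was used in counting is not given in the sources used here. *Impdh2-ps* is 99.7% identical to *Impdh2* over 83.2% of its transcript and reached 7.41. *Paics* has the copies *Gm4797* and *Gm19241*, 90.04% and 91.2% identical over part of its length, which have no values here. No transcript of another gene in the table aligned with that of *Hprt* over at least 200 bases.

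The genes around the route were counted by lists. Over all genes, 35.5% were called higher and 29.2% lower in iNP, 35.5% and 32.1% in iSP, and 32.1% and 28.5% in eUB cells against E11.5, and these shares stand beside each count that follows. Against E12.5 they were 25.6% and 18.7%, 33.3% and 28.8%, and 23.3% and 21.2%. Of the 4 PRPP synthesis genes, 2 were lower and none higher in iNP, 2 lower and 2 higher in iSP, and 2 lower and 1 higher in eUB cells, each against its E11.5 counterpart. Against E12.5 cells 1 was lower and none higher in iNP, 1 lower and 2 higher in iSP, and 1 lower and 1 higher in eUB cells. *Prps1*, an X-linked PRPP synthetase gene, was at -0.75 in iNP (limma adjusted p = 0.00012), -0.66 in iSP (adjusted p = 0.0054) and -1.48 in eUB cells (adjusted p = 1.1e-05), so it fell in all 3 types. *Prps2*, its paralogue, rose in iSP cells by 0.53 (adjusted p = 0.0028). Of 12 tested interconversion genes, which move IMP, AMP and GMP into each other and into diphosphates, 7 rose and 3 fell in iNP, 7 rose and 2 fell in iSP, and 4 rose and 4 fell in eUB cells. Against E12.5 cells 2 rose and 1 fell in iNP, 6 rose and 1 fell in iSP, and 1 rose and 3 fell in eUB cells. *Adssl1*, an adenylosuccinate synthetase gene known best from muscle, rose most in iNP (3.27, adjusted p = 2.7e-08; 27.6 against 1.96 normalised CPM) and in iSP cells (1.89, adjusted p = 5.9e-07). *Ampd3*, an AMP deaminase gene, rose in iNP (1.29) and *Ak4*, an adenylate kinase gene, in iSP cells (0.91), while *Gmpr*, a GMP reductase gene, rose in eUB cells (1.10).

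Among genes of purine breakdown, nucleosides and uptake, 4 of 12 rose and 3 fell in iNP and likewise in iSP, and 5 of 13 rose and 3 fell in eUB cells. Against E12.5 cells the counts were 2 and 1 of 11 in iNP, 5 and 4 of 12 in iSP and 6 and 3 of 13 in eUB cells. *Slc29a3*, a nucleoside transporter gene, rose in all 3 ES-derived types, by 1.64, 1.68 and 1.97 in iNP, iSP and eUB (limma adjusted p = 0.0015, 1.2e-06 and 2e-06). *Pnp*, which frees hypoxanthine and guanine from nucleosides, the substrates of HPRT, rose in iNP cells by 0.74 (adjusted p = 0.011). *Slc29a2*, another nucleoside transporter gene, rose in iSP cells by 1.76. Of the 17 serine and folate genes, which supply glycine and formyl groups to the route, 11 rose and 2 fell in iSP, 6 rose and 4 fell in iNP, and 4 rose and 6 fell in eUB cells. Against E12.5 cells 6 rose and 3 fell in iSP, 1 rose and 2 fell in iNP, and 4 rose and 6 fell in eUB cells. *Mthfd2*, a mitochondrial folate enzyme gene, fell in each, at -2.46 in iNP, -2.29 in iSP and -1.64 in eUB cells (adjusted p = 2.7e-07, 6.9e-06 and 7e-08). The widest rises were those of *Aldh1l1* in iNP (1.59), *Aldh1l2* in iSP (1.73) and *Gldc* in eUB cells (1.84).

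Of the 15 genes of the pyrimidine route, 5 rose and 3 fell in iSP, 4 rose and 3 fell in iNP, and 3 rose and 2 fell in eUB cells, and against E12.5 cells 3 and 3, 3 and 2, and 2 and 3. *Dhodh*, the mitochondrial step of de novo pyrimidine synthesis, rose in iSP (1.10, limma adjusted p = 0.00013) and eUB cells (1.48, adjusted p = 4.2e-07), and *Umps*, the end of that route, fell in eUB cells by 0.89 (adjusted p = 4.8e-06). Of 16 cell cycle genes 5 rose and 4 fell in iSP, 4 rose and 7 fell in iNP, and 8 rose and 3 fell in eUB cells (against E12.5 cells 5 and 2, 4 and 4, and 7 and 2), and their part in the purine differences was not tested. Median changes of the lists were small beside those of single genes. In iNP cells the median of the PRPP list (-0.07), the cell cycle list (-0.21) and the pyrimidine list (0.00) turned positive under one scaling or both, to 0.11, 0.02 and 0.19 at most. In iSP cells the cell cycle median turned from -0.05 to 0.15 under quantile normalisation and 0.09 under upper-quartile scaling, and in eUB cells the PRPP median from -0.03 to 0.04 and 0.02.

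Of 3 known activators of these routes, *Atf4* and *Myc* were called lower in all 3 ES-derived types against E11.5 cells. *Atf4*, the transcription factor of the amino acid response, had log2 fold changes of -2.11 in iNP (limma adjusted p = 4.8e-07), -2.36 in iSP (adjusted p = 4.4e-08) and -0.61 in eUB cells (adjusted p = 0.00065). *Myc*, which is known to drive nucleotide synthesis genes, had -2.32 in iNP (adjusted p = 4.8e-07), -1.30 in iSP (adjusted p = 1.1e-06) and -0.32 in eUB cells (adjusted p = 0.036). *Mycn* was not called in iNP (0.05) or iSP cells (-0.02) and fell by 0.75 in eUB cells (adjusted p = 4e-05). Against E12.5 cells *Atf4* and *Myc* were called lower in iNP (-1.83 and -1.67) and iSP cells (-2.10 and -1.21), and none of the 3 was called in eUB cells (-0.22 for *Atf4*, 0.14 for *Myc* and -0.30 for *Mycn*). Against E11.5 cells under both other scalings 2 of the 3 activators were called lower in iNP and in iSP cells, and in eUB cells 2 under quantile normalisation and 3 under upper-quartile scaling.

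The E-box CACGTG, to which MYC family proteins can bind, is shown where it was found in the members, in windows of 30 bases on the plus strand of GRCm38.p6 from RefSeq with the box in capitals. The windows are chr5:76951087-76951116, chr1:71557137-71557166 and chr9:108560314-108560343.
Paics: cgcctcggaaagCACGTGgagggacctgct
Atic: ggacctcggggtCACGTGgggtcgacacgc
Impdh2: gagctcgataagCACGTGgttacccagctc
The box begins 203, 7 and 110 bases before the RefSeq start in turn, and CACGTG, which reads the same on both strands, stood in 3 of the 9 members with a window and in 7.15% of all windows. Among the members that hold it, *Paics*, *Atic* and *Impdh2* were called higher in iSP against E11.5 SP cells, as were 5 members in which it was not found or that have no window. The letters say nothing about binding in these cells.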

How the data were processed

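The authors trimmed reads with Cutadapt, aligned them with STAR, filtered and normalised the counts and used edgeR for their own comparisons. The counting program, its strand setting, the filter and the normalisation method are not given in the sources used here. The methods name the genome GRCh38, while the identifiers are those of mouse, and 22642 of 22761 (99.5%) are in GENCODE vM21 of GRCm38. The deposited signal values are CPM scaled by the authors' normalisation factors. Dividing by the worth of 1 read gave whole reads for 100% of values (tolerance 0.01). A deposited table of the authors' means, log2 fold changes and p-values was not used.

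The test was limma 3.58.1 with a trend (R 4.3.3), run on log2(value + 1) for genes that reached 1 normalised CPM in 4 or more libraries of the comparison. Benjamini-Hochberg adjustment covered all genes tested, and called means an adjusted p under 0.05. Each of 9 comparisons used its own 8 libraries, and each of 2 differences between comparisons its 16. Intervals are 95%. The members and lists (PRPP synthesis, interconversion, breakdown, serine and folate, pyrimidine, cell cycle, regulators, cell type markers) were chosen with earlier results of these data known. Genes outside the members were named by rule: the 2 widest called changes of a list in a comparison with E11.5 cells, all regulators, the defining markers, the 3 nearest genes on each side of *Hprt* and the 5 most like it. The settings also tried were upper-quartile scaling, quantile normalisation, no filter or one at 5, a pseudocount of 0.1, all 36 libraries, edgeR 4.0.16 on the recovered reads, a replicate block and each library left out. E12.5 comparators for the 2 differences, with and without E12.5 UB replicate 1, were added after seeing the data. In none of the 9 comparisons did every same-numbered pair of libraries deviate together, so the numbers were not used as pairs. On simulated reads 100% of log2 changes of 1 and of 2 were called in the iNP against E11.5 NP comparison (13974 genes), and 0.0508% of unchanged genes. The changes were put into genes with a mean of at least 5 normalised CPM, with the same spread set for every gene. Changes below 1, the size of all those of members other than *Hprt*, were not simulated, so power for them was not measured. Transcripts were compared with BLAST 2.17.0. Upstream sequences are RefSeq's, GRCm38.p6. p-values measure the spread between pools.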

Additional observations from a re-analysis of the deposited data

Results flagged for a closer look

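Of 90 sets of 4 libraries (10 genes in 9 groups), 9 had a library far from the other 3 by Dixon's test, which chance gives in about 1 of 20 sets. E12.5 UB replicate 1 accounted for 4 of them: *Hprt* at 31.5 normalised CPM (others 50.0 to 53.8), *Gart* at 192 (238 to 240.1), *Adk* at 52.1 (41.4 to 43.0) and *Paics* at 371 (293 to 299). That library also held NP markers at a sum of 368 and endothelial markers at 87.4, against 2.98 to 6.04 in the other E12.5 UB libraries, and their part in these values was not tested. iNP replicate 2 was high in *Aprt*, at 151 (85.6 to 92.8), and in *Adk*, at 58.6 (47.7 to 48.4). eUB replicate 1 was high in *Ppat*, at 85.1 (73.5 to 74.2). E11.5 NP replicate 1 was low in *Ppat*, at 87.7 (119 in the others), and E12.5 NP replicate 1 was low in *Pfas*, at 77.3 (129 to 135).

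The change from E11.5 to ES-derived cells differed from that in eUB cells, by the test of the difference itself (limma), for 5 genes in iSP cells: *Adk* by 0.59, *Gart* by 0.81, *Paics* by 0.54, *Adsl* by 0.38 and *Impdh2* by 0.58 on the log2 scale. In iNP cells it differed for *Ppat* by -0.44, *Gart* by 0.43 and *Pfas* by -0.78.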

How the results depend on the processing

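Counts of all genes called moved by more than 1.5 times in 4 cases. From E11.5 to E12.5, 3648 genes were called in UB, 1162 in SP and 850 in NP cells. The replicate block gave 2365 in UB, the filter at 5 gave 762 in SP and 469 in NP, and all 36 libraries in 1 fit gave 3141 and 1572. Leaving out a library gave 2332 (without E11.5 UB replicate 1) to 5982 (without E12.5 UB replicate 1) in UB, 392 to 2889 in SP and 147 to 2249 in NP. The iNP difference from eUB fell from 7143 to 4540 with E12.5 comparators, chosen after seeing the data. The cause of these moves was not tested beyond the change in samples or filter itself. Same-numbered libraries correlated in their deviations at -0.552 to 0.493 over the compared pairs of groups, so the numbers were not taken as pairs there. E12.5 NP and E12.5 SP libraries, which were not compared with each other, correlated by number at 0.518 to 0.683 in all 4 pairs. Under the replicate block *Paics* in eUB against E11.5 UB (adjusted p = 0.059), *Gart* against E12.5 UB (0.087) and *Adsl* in the iSP difference (0.054) lost the call, *Paics* in eUB against E12.5 UB gained it (0.036), and iSP against E12.5 SP kept 4 of 6 members.

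Signs turned for changes near 0, given as quantile then upper-quartile values. Against E11.5, *Ppat* (0.034, 0.031) and *Adsl* (0.047, 0.026) turned in eUB, *Ppat* (0.062, 0.093) in iSP, and *Adsl* (0.19, 0.16), *Impdh2* (0.15, 0.092) and, under quantile, *Pfas* (0.011) in iNP. Against E12.5, *Aprt* (0.023, 0.011, and 0.032 by edgeR) and, under upper-quartile, *Hprt* (0.029) turned in eUB, *Ppat* (0.019, upper-quartile) in iSP, and *Gart* (0.072, 0.029) and *Atic* (0.18, 0.14) in iNP. From E11.5 to E12.5, *Atic* (0.031, quantile) and *Impdh2* (0.063, 0.0058) turned in UB and *Pfas* (0.044, 0.023) in NP. In the iNP difference *Atic* (0.11, 0.11) and *Paics* (0.077, upper-quartile) turned, *Adsl* by edgeR (-0.0098) and with E12.5 comparators (-0.085, or -0.075 without E12.5 UB replicate 1), and *Impdh2* with these (-0.080 and -0.14). In the iSP difference *Ppat* (0.026, 0.056, and 0.0032 with E12.5 comparators, or 0.040 without E12.5 UB replicate 1) turned.

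Leaving out a library turned other signs, none of them of a called change. In eUB against E11.5 UB the values ranged over -0.073 to 0.012 for *Adsl*, -0.14 to 0.18 for *Aprt*, -0.0078 to 0.15 for *Atic* and -0.068 to 0.020 for *Ppat*, and against E12.5 UB over -0.22 to 0.10 for *Aprt*, -0.19 to 0.065 for *Hprt* and -0.015 to 0.13 for *Pfas*. In iSP they were -0.14 to 0.037 for *Ppat* against E11.5 SP and -0.0080 to 0.12 for *Aprt* against E12.5 SP. In iNP they were -0.060 to 0.13 for *Adk*, -0.061 to 0.0060 for *Adsl* and -0.012 to 0.14 for *Gart* against E11.5 NP, and -0.10 to 0.15 for *Atic* and -0.24 to 0.036 for *Gart* against E12.5 NP. From E11.5 to E12.5 they were, in UB, -0.041 to 0.088 for *Adk*, -0.073 to 0.0061 for *Atic*, -0.015 to 0.092 for *Gart*, -0.19 to 0.065 for *Hprt*, -0.064 to 0.037 for *Impdh2* and -0.026 to 0.094 for *Paics*. In SP they were -0.084 to 0.16 for *Impdh2* and -0.037 to 0.13 for *Ppat*, and in NP -0.069 to 0.18 for *Atic*, -0.25 to 0.012 for *Hprt*, -0.089 to 0.11 for *Paics*, -0.090 to 0.17 for *Pfas* and -0.035 to 0.28 for *Ppat*. In the iNP difference they were -0.037 to 0.052 for *Adsl*, -0.085 to 0.085 for *Atic*, -0.027 to 0.12 for *Impdh2* and -0.16 to 0.059 for *Paics*, and in the iSP difference -0.12 to 0.055 for *Ppat*. Depth limits *Hprt* in iNP and iSP cells, where each value rests on 3 to 19 reads.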
